A study of Mus musculus with 18 samples.

Results

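The OHT response with HDAC1-Y48E rescue was taken as the comparison of the 3 OHT treated with the 3 untreated libraries of the HDAC1-Y48E line. These were chosen by their labels and are 6 of the 18 RNA-seq libraries of the study. All cells were of the E14TG2a mouse embryonic stem cell (ESC) line with loxP sites in both copies of Hdac1 and Hdac2. Both groups also carried a stable piggyBac transgene for Flag-tagged HDAC1-Y48E, in which a surface tyrosine is replaced by glutamate. The untreated cells therefore held endogenous HDAC1 and HDAC2 beside the mutant. The drug 4-hydroxytamoxifen (OHT) induced recombination at the loxP sites, which removes the endogenous genes and leaves the transgene. The labels give 1 µM OHT for 5 days, and the methods describe a shorter exposure followed by culture without the drug. The other group was kept untreated for the same 5 days, and both grew in serum with leukaemia inhibitory factor (LIF). The comparison asks which transcripts change when this mutant is the HDAC1 that remains. The HDAC1-WT and HDAC1-E63R lines, with wild-type HDAC1 or another surface mutant, had the same design and serve to show where the HDAC1-Y48E response differs. The paper calls the 3 libraries of a group biological replicates. The sources used here do not say whether these were separate cultures, whether a line was 1 clone or a pool or which promoter drove the transgene. The p-values therefore measure the spread between these libraries, and how far this spread is technical is not known.

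HDAC1 and HDAC2 are the catalytic subunits of corepressor complexes such as SIN3, NuRD and CoREST, which remove acetyl groups from histone tails at promoters and enhancers. Mouse ESCs in LIF keep a naive state through Pou5f1, Sox2, Nanog, Esrrb and Klf factors. Genes of extraembryonic, epidermal and germline cells are held silent in them by histone deacetylation, Polycomb proteins or DNA methylation.

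Counts on genes lay between 9019615 and 10046717 in the 6 HDAC1-Y48E libraries. Levels are given as counts per 1000000 gene counts (CPM) after scaling by TMM factors, and a count of 0 allowed up to 3 counts, or 0.27 to 0.342 CPM, for counting error only. Between 18236 and 18469 genes had more than 3 counts in the untreated libraries and between 20143 and 20596 after OHT. The TMM factors also separated the groups (0.9546 to 0.9642 without and 1.106 to 1.109 with OHT). Without them all changes moved up, with the median log2 fold change of all genes at 0.252 in place of 0.0474. The untreated HDAC1-E63R replicate 3 stood apart with a factor of 0.8142. Hdac1 went from 97.9, 104 and 102 CPM to 110.1, 111 and 113 CPM (log2 fold change 0.14 ± 0.09 SE, edgeR adjusted p = 0.221), and Hdac2 from 149, 154 and 151 CPM to 152, 142 and 139 CPM (log2 fold change -0.07 ± 0.11 SE, edgeR adjusted p = 0.649). Counts per gene do not separate the transgene from endogenous Hdac1 or deleted from remaining exons, and 1450 bases of Hdac1 are 96.3% identical to another locus, so these values do not check the deletion.

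After OHT, 2030 genes were higher and 1097 were lower in the HDAC1-Y48E cells among the 18791 genes tested. These are 10.8% up, 5.84% down and 16.6% in either direction, the shares against which each count of list members below is to be read. Differentially expressed genes (DEGs) were those with a Benjamini-Hochberg adjusted p under 0.01 in edgeR's quasi-likelihood test that also changed more than 2-fold, and "rose" and "fell" below mean DEGs. Of the DEGs 64.9% rose, a share that became 79.2% (2613 up, 686 down) when libraries were scaled by their totals without TMM factors. Larger fitted changes leaned further to increases, with 1171 genes up and 226 down by more than 4-fold and 472 up and 37 down by more than 16-fold. Of the genes that rose 354 had at most 3 counts in every untreated library, and of those that fell 37 had so after OHT. For these the fitted fold is no measure of size, so how far the larger changes lean is uncertain. The genes that rose held 1.6% to 1.62% of all counts before and 6.25% to 6.41% after OHT. The genes that fell held 9.75% to 9.9% before and 4.33% to 4.37% after.

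The direction of change differed with the level of the gene. Of 6158 genes with a mean of 1 to 10 CPM over the 6 libraries, 17.8% rose and 4.86% fell, and their median log2 fold change was 0.388. Between 10 and 100 CPM 8.8% rose and 7.06% fell. Of 2184 genes above 100 CPM 2.15% rose and 7.42% fell, with a median of -0.225. Below 1 CPM 7.09% rose and 1.57% fell, among genes that had to reach the filter in at least 1 group. The plot of change against level shows this tilt.

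**Figure D1:**
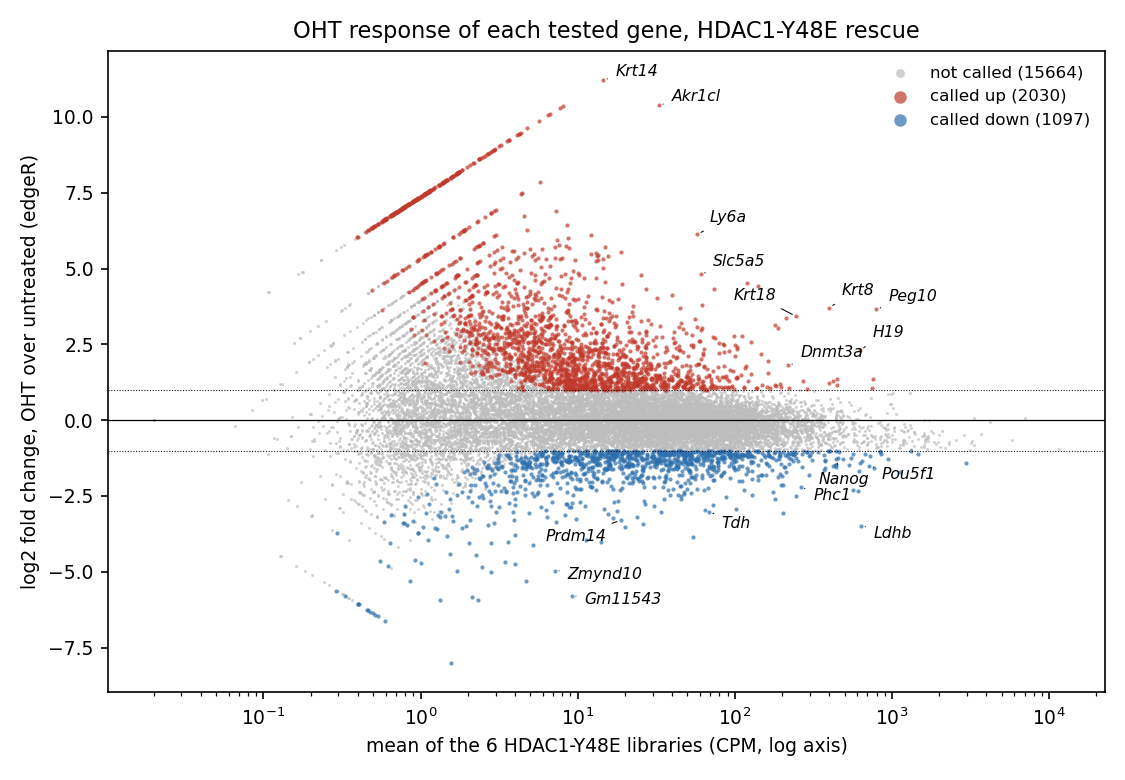
Each point is 1 of the 18791 tested genes, with its mean over the 6 HDAC1-Y48E libraries in CPM on a log axis and its log2 fold change after OHT. Red genes rose (2030), blue genes fell (1097), dotted lines mark a 2-fold change, and the straight diagonal rows at the left are genes with 0 or a few counts in 1 group, whose fitted values are no measure of size.

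Of the genes that rose, 354 had at most 3 counts in every untreated library, and 261 of these were protein coding. Genes this low were tested only where another group was high enough to pass the filter on low counts, so their number is partly set by the filter. By the same limits 58 of these 354 genes also rose in the HDAC1-E63R cells, against 720 (35.5%) of all 2030 genes that rose. In the HDAC1-WT cells 0 of the 354 rose, which says little because only 7 of all 18791 tested genes rose there. The test has little precision for genes that are near 0 in the other line as well. Akr1cl, an aldo-keto reductase family member (mm10, chromosome 1, 65012689 to 65032759), went from 0, 0.114 and 0 CPM to 71.2, 68.4 and 58.1 CPM, at least 199-fold higher (edgeR adjusted p = 1.19e-11). S100a14, a calcium-binding protein of epithelia, had 0, 0 and 0 CPM without OHT and 11.5, 12.8 and 14.6 CPM with it, at least 39.1-fold higher. Reg1, a secreted protein of the pancreas and gut, had 0, 0 and 0 CPM and then 10.7, 7.44 and 15.8 CPM, at least 34.2-fold higher. These 3 genes were named by a rule that required no overlap between the groups, so their separation is no further evidence. All 3 also rose with HDAC1-E63R, to means of 7.84, 7.49 and 1.13 CPM after OHT.

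In the other direction 37 of the genes that fell had at most 3 counts in every OHT treated library, with the same limit from the filter. The most abundant of them before treatment was Gm42738, which went from 8.58, 9.0 and 9.8 CPM to 0.301, 0.181 and 0.18 CPM. Of its exons 53.1% lie opposite Prmt8, an arginine methyltransferase gene, which fell as well (from 48 ± 3.58 to 4.48 ± 1.72 CPM, here and below mean ± SD, n = 3), and reads of the strands may not be told apart. Mir124a-1hg, the host transcript of a neuronal microRNA, went from 5.17, 4.21 and 4.31 CPM to 0.201, 0 and 0 CPM, at least 16.2-fold lower.

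Beyond silent genes, Ly6a (Sca-1, a surface marker of stem and progenitor cells) went from 1.87, 1.14 and 1.83 CPM to 119, 113 and 109.9 CPM (log2 fold change 6.13 ± 0.32 SE, edgeR adjusted p = 3.06e-12). Slc5a5, the sodium-iodide symporter, rose from 4.16 ± 1.4 to 118 ± 5.43 CPM (log2 fold change 4.82, edgeR adjusted p = 5.81e-12). Nppb, a natriuretic peptide gene, and Actc1, cardiac actin, rose from means of 0.254 and 0.228 CPM to 17.2 and 14.5 CPM. Their untreated counts lay near the floor of 3, so the fitted log2 fold changes (6.0 and 5.95) depend on few counts. Among the largest decreases was Slc15a1, a peptide transporter, which went from 26.6, 26.6 and 26.6 CPM to 2.31, 1.45 and 1.17 CPM (log2 fold change -4.02 ± 0.23 SE, edgeR adjusted p = 8.53e-12). Inhbb, an activin subunit, fell from 30.1 ± 2.67 to 3.2 ± 0.345 CPM. Trim63, a muscle ubiquitin ligase, fell from 36.9 ± 2.52 to 3.21 ± 0.058 CPM.

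Of 27 naive pluripotency genes, all tested, 14 fell (5.84% of all tested genes did) and 1 rose, and their median log2 fold change was -1.07 (0.0474 over all genes). Without TMM factors 11 fell. Pou5f1, which encodes OCT4 and is required for pluripotency (mm10, chromosome 17, 35506018 to 35510772), went from 1036, 1049 and 1114 CPM to 384, 395 and 336 CPM (log2 fold change -1.52 ± 0.13 SE, edgeR adjusted p = 6.15e-09). Nanog (chromosome 6, 122707489 to 122714633) went from 649, 627 and 592 CPM to 257, 254 and 251 CPM (log2 fold change -1.29 ± 0.10 SE, edgeR adjusted p = 7.59e-10). The groups did not overlap for either gene. Sox2, the partner of OCT4, went from 315, 313 and 302 CPM to 199, 189 and 192 CPM, which passed the adjusted p limit but not 2-fold (log2 fold change -0.68 ± 0.11 SE, edgeR adjusted p = 3.44e-05).

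Of the 11 naive factors 8 fell. Esrrb, an orphan nuclear receptor (chromosome 12, 86361117 to 86521628), went from 548, 573 and 554 CPM to 180.0, 184 and 173 CPM (log2 fold change -1.64 ± 0.11 SE, edgeR adjusted p = 1.3e-10). Prdm14, a repressor of DNA methyltransferase and lineage genes (chromosome 1, 13113457 to 13127163), had the largest decrease of the list, from 39, 32.3 and 31.3 CPM to 2.71, 3.9 and 3.78 CPM (log2 fold change -3.3 ± 0.20 SE, edgeR adjusted p = 1.77e-11). Klf2, a Krüppel-like factor, fell from 219.8 ± 13 to 39.7 ± 4.04 CPM and Tcl1, an AKT coactivator, from 77.8 ± 7.94 to 13.9 ± 1.62 CPM. The nuclear receptors Nr5a2 (-1.89) and Nr0b1 (-1.94) and the factors Tfcp2l1 (-1.7) and Tbx3 (-1.08) fell too, as log2 fold changes.

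The 3 naive factors that did not fall were Klf5 (0.02 on the log2 scale), Klf4 and Zfp42 (Rex1). Klf4 had 150.2, 141 and 154 CPM without and 135, 148 and 134 CPM with OHT (log2 fold change -0.09, edgeR adjusted p = 0.472). Zfp42 had 303, 314 and 319 and 249, 255 and 219.9 CPM (log2 fold change -0.37, edgeR adjusted p = 0.00961). The core factor Sall4 had 193, 177 and 189 and 155, 166 and 168 CPM (log2 fold change -0.20, edgeR adjusted p = 0.118). The groups overlapped for Klf4 and lay close together for Sall4, and both genes changed sign, to 0.111 and 0.0107, without TMM factors. Of the other markers, Tdh, the threonine dehydrogenase on which mouse ESCs depend, went from 112, 137 and 118 CPM to 13.6, 14.7 and 17.2 CPM (log2 fold change -3.01 ± 0.16 SE, edgeR adjusted p = 3.06e-12). Dppa3 (Stella), a maternal factor that shields imprints from demethylation, was the gene that rose, from 15.9, 14.8 and 14.4 CPM to 60.9, 54.4 and 52.5 CPM (log2 fold change 1.89 ± 0.23 SE, edgeR adjusted p = 8.16e-07). Nanog, Dppa3, Tdh and Zfp42 have copies at least 95% identical to part of their transcripts, and 14.1% of the Pou5f1 exons overlap another gene, so reads may be shared.

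**Figure D2:**
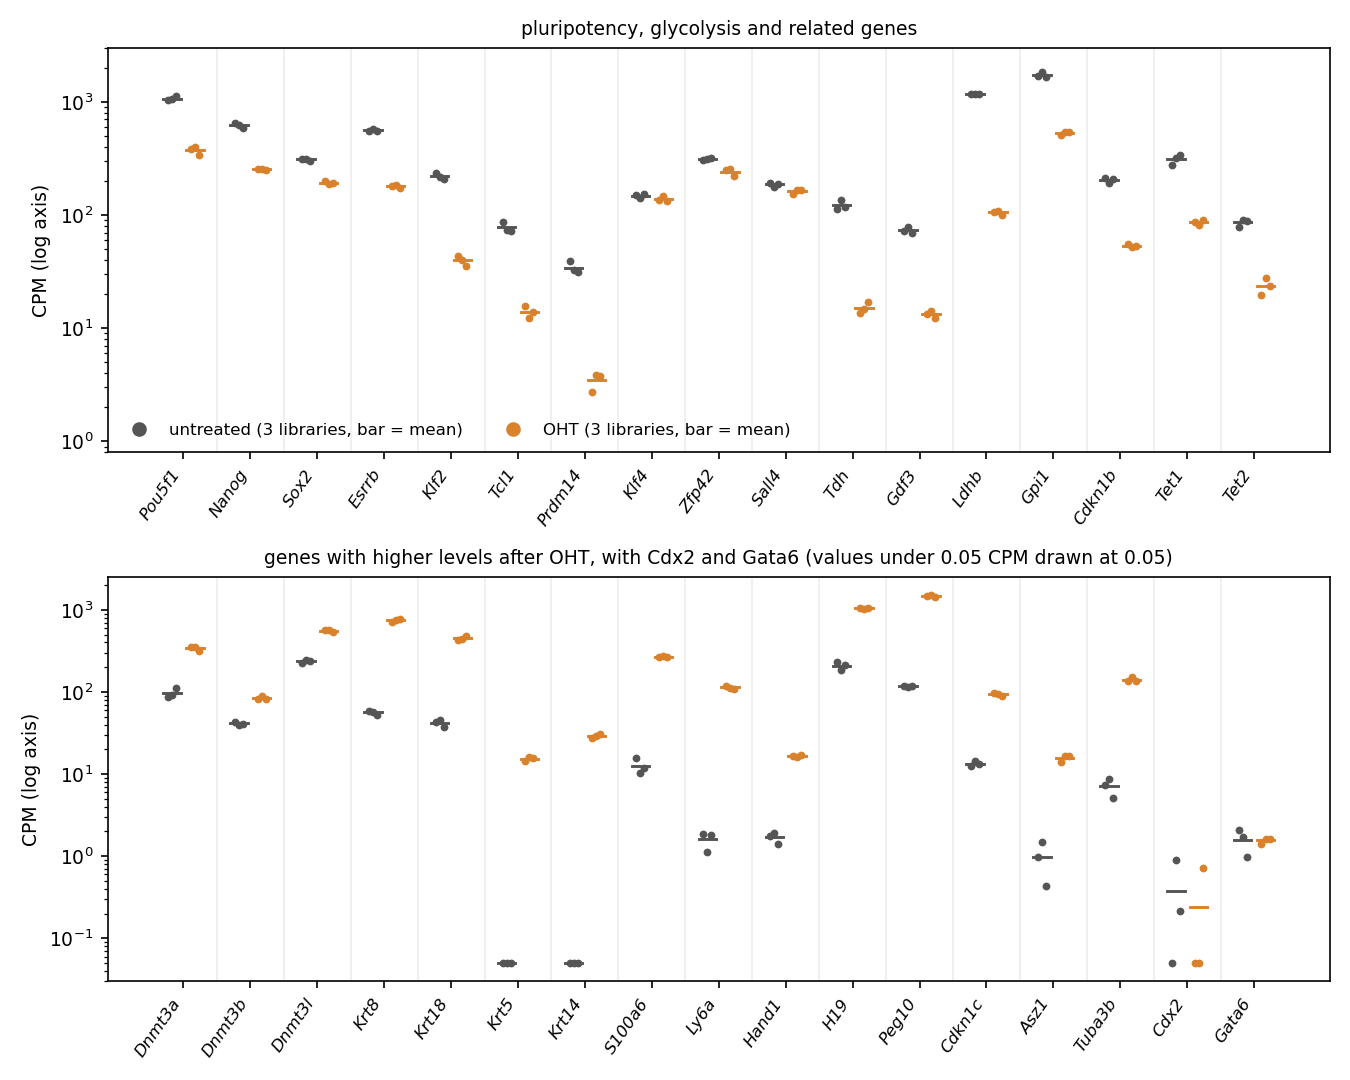
Levels of 34 genes in each HDAC1-Y48E library, in CPM on a log axis, with untreated libraries in grey, OHT treated libraries in orange and bars at the group means. In the upper panel Klf4 and Sall4 lie nearly level while Prdm14, Tdh and Ldhb drop, and in the lower panel Krt5 and Krt14 start from 0 counts, drawn at 0.05 CPM.

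LIF acts through its receptor and STAT3. Of 19 genes of this pathway 2 rose (10.5%, against 10.8% of all tested genes) and 3 fell (15.8%, against 5.84%). The receptor Lifr fell from 86.8 ± 5.04 to 38.5 ± 2.83 CPM (log2 fold change -1.17 ± 0.18 SE, edgeR adjusted p = 2e-05) and the kinase Jak2 rose from 20.3 ± 1.63 to 50.2 ± 5.34 CPM. Of the targets Junb rose (1.08) and the feedback inhibitors Socs2 (-1.29) and Cish (-1.37) fell on the log2 scale. Cish had 6.49, 7.74 and 7.0 CPM without and 5.52, 0.997 and 1.8 CPM with OHT. Its call was lost without TMM factors (edgeR adjusted p = 0.0135). It was also lost without untreated replicate 2 or OHT replicate 2 or 3 (edgeR adjusted p = 0.0139, 0.0226 and 0.0267).

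FGF4 and ERK signalling drives ESCs out of the naive state. Of 8 FGF ligands 4 fell (50%, against 5.84% of all tested genes) and 1 rose (12.5%, against 10.8%). Fgf4, the autocrine ligand of ESCs, went from 346, 377 and 372 CPM to 41.4, 46.9 and 42.5 CPM (log2 fold change -3.06 ± 0.09 SE, edgeR adjusted p = 9.78e-16). Fgf17 fell from 17.7 ± 2.4 to 1.84 ± 0.196 CPM, Fgf15 from 15.5 ± 4.09 to 2.12 ± 0.382 CPM and Fgf10 from 2.86 ± 0.74 to 0.31 ± 0.315 CPM, and 24.9% of the Fgf15 exons overlap another gene. Fgf1 was the ligand that rose, from 6.91 ± 1.58 to 60.2 ± 3.47 CPM (log2 fold change 3.12, edgeR adjusted p = 5.71e-09). Of 15 ERK targets and feedback inhibitors 5 rose and 0 fell, with a median of 0.891. These were the transcription factor Etv1 (2.2), the phosphatases Dusp14 (2.02) and Dusp5 (1.49), and Spry2 (1.77) and Spry4 (1.18), which damp receptor signals, as log2 fold changes. Of 5 receptors Fgfr2 rose (1.59).

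BMP signals maintain ESCs through the Id genes, whose products block basic helix-loop-helix factors. Of 7 BMP ligands and antagonists and of 10 receptors and SMADs 0 were DEGs, where 16.6% of all tested genes were. Of 10 targets 4 rose (40%, against 10.8% of all tested genes) and 0 fell. The difference between these groups of genes was not tested. Id3 went from 11.5, 8.77 and 9.48 CPM to 219.8, 218 and 253 CPM (log2 fold change 4.53 ± 0.17 SE, edgeR adjusted p = 3.16e-14). Id1 went from 39.7, 36.3 and 36.7 CPM to 393, 387 and 379.9 CPM (log2 fold change 3.36 ± 0.18 SE, edgeR adjusted p = 5.48e-12). Both were named by a rule that required no overlap between the groups. Id2 rose from 47.4 ± 5.39 to 148 ± 15.7 CPM, and Hand1 is described with the trophoblast genes. In the Nodal pathway 5 of 16 genes fell (31.2%, against 5.84% of all tested genes) and 1 rose (6.25%, against 10.8%). The ligand Gdf3 fell from 73.5 ± 4.59 to 13.3 ± 0.866 CPM, and the inhibitor Lefty1 (-1.81), the transcription factors Foxh1 (-1.34) and Mesp2 (-1.23) and the coreceptor Tdgf1 (-1.18) fell on the log2 scale. The call of Mesp2 (edgeR adjusted p = 0.00975) was lost in most other fits (adjusted p = 0.0124 with RLE factors and 0.0589 without OHT replicate 2). Eomes, a mesendoderm and trophoblast factor, rose (1.06), from a mean of 7.21 to 15 CPM, where untreated HDAC1-WT cells had 20.4 CPM.

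Of 15 WNT ligands 7 rose and 0 fell, and their median log2 fold change was 2.62 (2.09 with genes from 0 counts at their lower bounds). Wnt7a rose from 0.699 ± 0.443 to 28.2 ± 3.52 CPM and Wnt4 from 1.3 ± 0.791 to 22.1 ± 0.941 CPM. The secreted inhibitor Dkk1 had 0, 0.114 and 0 CPM without and 6.93, 4.17 and 6.93 CPM with OHT, at least 18.1-fold higher. Of 15 receptors 1 rose (6.67%, against 10.8% of all tested genes) and 3 fell (20%, against 5.84%). Fzd7 went from 101 ± 2.6 to 31.9 ± 1.52 CPM and Fzd5 from 109 ± 6.3 to 46.1 ± 4.87 CPM. The antagonist Sfrp1 fell from 180.5 ± 3.41 to 60.0 ± 2.34 CPM and the ubiquitin ligase Rnf43, which removes WNT receptors, from 7.86 ± 2.53 to 1.41 ± 0.635 CPM.

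Of 20 genes of DNA methylation 3 rose and 3 fell (15% each, against 10.8% and 5.84% of all tested genes). Of the 7 readers among them 0 were DEGs. Dnmt3a, a de novo methyltransferase, went from 86.4, 91.9 and 113 CPM to 354, 352 and 313 CPM (log2 fold change 1.81 ± 0.14 SE, edgeR adjusted p = 1.14e-09). Dnmt3b went from 43.2, 40.1 and 40.8 CPM to 81.8, 90.0 and 81.6 CPM (log2 fold change 1.03 ± 0.16 SE, edgeR adjusted p = 2.76e-05). Their cofactor Dnmt3l went from 225, 246 and 235 CPM to 562, 575 and 535 CPM (log2 fold change 1.24 ± 0.11 SE, edgeR adjusted p = 1.25e-08). The groups were apart for each of the 3 genes, though Dnmt3b lay at the 2-fold limit and had a log2 fold change of 0.981 without OHT replicate 2. Tet1 and Tet2, which oxidise methylcytosine, fell from 311 ± 29.8 to 86.4 ± 4.57 CPM and from 86.3 ± 6.47 to 23.6 ± 4.0 CPM, and Prdm14 was the third decrease. The same 3 genes and Grhl2, an epithelial factor, were the 4 increases among 20 formative and primed genes. Foxd3, a factor of that state, fell (edgeR adjusted p = 0.00886), with 8.03, 7.63 and 7.65 CPM and then 5.22, 0.997 and 2.43 CPM, and lost its call in several other fits (adjusted p = 0.0529 without OHT replicate 2).

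Keratins had the highest median log2 fold change of the lists. Of 17 tested keratin genes 10 rose (10.8% of all tested genes did) and 1 fell, with a median log2 fold change of 2.87. Of 12 genes of epidermal differentiation 7 rose and 1 fell. The 250 bases upstream of the RefSeq start of Krt5 are printed because this gene rose from 0 counts and held 2 CG pairs, where the median over 12440 tested genes with such a window was 15 (GRCm38.p6, read 5′ to 3′ on the strand of the gene, with CG pairs in capitals).
Krt5, chr15:101712906-101713155, minus strand: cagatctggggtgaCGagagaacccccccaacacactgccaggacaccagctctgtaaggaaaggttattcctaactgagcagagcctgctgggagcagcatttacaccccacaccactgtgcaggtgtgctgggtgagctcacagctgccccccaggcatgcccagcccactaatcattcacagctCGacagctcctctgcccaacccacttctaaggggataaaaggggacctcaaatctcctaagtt

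Krt8 and Krt18 (mm10, chromosome 15, 101996698 to 102004482 and chromosome 15, 102028180 to 102032027), the first keratins of the embryo, were already expressed. Krt8 went from 59.4, 57.5 and 52.3 CPM to 714, 749 and 763 CPM (log2 fold change 3.72 ± 0.12 SE, edgeR adjusted p = 1.19e-15), and 941 bases of it are 98.6% identical to the pseudogene Krt8-ps. Krt18 went from 42.9, 45.5 and 36.9 CPM to 432, 439 and 477 CPM (log2 fold change 3.43 ± 0.21 SE, edgeR adjusted p = 3.15e-11). Krt5 and Krt14 (chromosome 15, 101707070 to 101712898 and chromosome 11, 100203162 to 100207548), the keratins of basal epidermis, had 0 counts in all 3 untreated libraries. After OHT Krt5 had 14.4, 16.1 and 15.7 CPM, at least 46.3-fold higher (edgeR adjusted p = 4.14e-09). Krt14 had 27.2, 29 and 30.9 CPM, at least 87.6-fold higher (edgeR adjusted p = 1.86e-09).

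Of 6 simple epithelial keratins 5 rose, with Krt19 (3.04), Krt20 (2.89) and Krt7 (1.43) beside Krt8 and Krt18 on the log2 scale. Of 11 epidermal keratins 5 rose and Krt10, a keratin of differentiated layers, fell (-1.61, edgeR adjusted p = 0.00318), a call lost in 4 other fits (adjusted p = 0.037 without untreated replicate 2). Dmkn, a secreted epidermal protein, went from 0.11, 0 and 0.431 CPM to 14.8, 14.6 and 21.2 CPM, and Krtdap, another, from 0.33, 1.94 and 0.646 CPM to 13.9, 11.7 and 11.9 CPM. Trp63, the master factor of stratified epithelia, had 0, 0.114 and 0 CPM and then 1.0, 1.27 and 2.43 CPM, near the limit of detection, and its call was lost in 7 other fits. Grhl3, an epidermal factor present before treatment, fell from 50.6 ± 3.41 to 24.6 ± 3.08 CPM. Of 33 epithelial and mesenchymal genes 4 rose (12.1%) and 2 fell (6.06%), near the shares of all tested genes (10.8% and 5.84%). The tight junction gene Cldn6 led the increases (from 67.2 ± 3.49 to 257 ± 17.6 CPM). The decreases were the fibronectin gene Fn1 (from 936 ± 75.9 to 294 ± 5.11 CPM) and Tgfbi.

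Among genes of the extracellular matrix the collagens rose most often. Of 17 collagen genes 11 rose and 0 fell, with a median log2 fold change of 2.57 (1.87 with genes from 0 counts at their lower bounds). Of 11 laminins 3 rose (27.3%) and of 14 integrins 3 (21.4%), against 10.8% of all tested genes, and 0 of either fell. Col1a1 went from 5.83, 2.16 and 3.02 CPM to 28.2, 34.5 and 30.1 CPM (log2 fold change 3.07 ± 0.32 SE, edgeR adjusted p = 7.99e-08), and Col5a2, a fibrillar collagen, from 0.323 ± 0.56 to 11.3 ± 0.829 CPM. Of 17 S100 and annexin genes 8 rose (47.1%) and S100a13 fell (5.88%, against 5.84% of all tested genes). S100a6 went from 15.7, 10.2 and 11.8 CPM to 267, 272 and 267 CPM (log2 fold change 4.41), and it also rose in the HDAC1-WT cells (1.84, edgeR adjusted p = 0.00247). Anxa1, an annexin of epithelia, rose from 4.71 ± 1.16 to 45.6 ± 6.09 CPM. Of 24 contractile genes 7 rose (29.2%, against 10.8% of all tested genes) and 0 fell. Examples were skeletal actin Acta1 (from 8.78 ± 2.87 to 81.9 ± 3.13 CPM) and the myosin light chain Myl9 (from 2.99 ± 0.913 to 32.2 ± 1.67 CPM).

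Markers of other cells moved beside these genes. The summed level of 10 fibroblast markers was 40.9 to 43.4 CPM without and 97.3 to 106 CPM with OHT, and Col1a1, Col6a3 and Thy1 rose among the 5 tested. Lum and Fap were at 0 and Dcn at 0.342 CPM or less in every library. The sum of 8 blood markers was 102 to 114 and then 41.9 to 51.7 CPM, with Coro1a up and Cd68 and Laptm5 down, and Adgre1 and Hbb-bs at 0.181 CPM or less. In bulk libraries fewer cells of a type and less RNA per cell cannot be told apart, and the part of other cells in the changes of matrix genes was not tested.

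Of 28 tested trophoblast genes 12 rose and 1 (the cadherin Cdh3) fell, with a median log2 fold change of 1.23 (1.12 with lower bounds). Their summed level went from between 453 and 496 CPM to between 2080 and 2130 CPM. Most of this level was Peg10 after OHT but not before, so the sum mainly follows this gene. Peg10, a retrotransposon-derived gene needed for the placenta, went from 117, 116 and 117 CPM to 1487, 1507 and 1434 CPM (log2 fold change 3.66 ± 0.18 SE, edgeR adjusted p = 1.51e-12). Hand1, a factor of trophoblast giant cells, went from 1.76, 1.94 and 1.4 CPM to 16.4, 16.1 and 16.8 CPM (log2 fold change 3.27 ± 0.29 SE, edgeR adjusted p = 8.74e-09). Further trophoblast factors rose, namely Gata3 (1.86), Eomes (1.06), Esx1 (2.37), Rhox6 (1.79) and Rhox9 (1.18) on the log2 scale. Eomes reached a mean of 15 CPM, below the 20.4 CPM of untreated HDAC1-WT cells, which had 7.13 CPM of Hand1. With HDAC1-E63R Hand1 rose to 29 CPM. Cdx2, which sets up the trophoblast in the embryo, had 0, 0.911 and 0.215 CPM without and 0, 0 and 0.72 CPM with OHT, a level at which a change was not detectable.

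The primitive endoderm factor Gata6 was likewise low, with 2.09, 1.71 and 0.969 CPM and then 1.41, 1.63 and 1.62 CPM (log2 fold change -0.03, edgeR adjusted p = 0.965). Other fits put this value above 0. Of 20 primitive endoderm genes 2 rose (10%) and 1 fell (5%), near the shares of all tested genes (10.8% and 5.84%). The endocytic genes Amn (2.36) and Dab2 (1.88) rose on the log2 scale. The nuclear receptor Hnf4a fell (-1.27), a call lost in 3 other fits. Of 21 vascular genes the receptors Kdr, Tek, Flt1 and Flt4 rose (19%, against 10.8% of all tested genes) and 3 fell (14.3%, against 5.84%). Of the latter the ligand Vegfa went from 228 ± 11 to 65.6 ± 6.05 CPM and the adhesion gene Pecam1 from 142 ± 6.14 to 57.4 ± 10.7 CPM.

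Of 8 neural progenitor factors 4 fell and 1 rose (5.84% and 10.8% of all genes). Pax6, a factor of eye and forebrain, fell from 11.4 ± 2.22 to 2.09 ± 0.42 CPM, and Neurod1 from 12.8 ± 1.09 to 2.7 ± 1.1 CPM, Msi1 from 124 ± 3.75 to 47.5 ± 1.98 CPM and Sox1 from 12.7 ± 1.43 to 5.1 ± 0.772 CPM fell as well. Of 21 products of neurons and their regulator 5 rose (23.8%) and 1 fell (4.76%), and the difference between the groups of genes was not tested. Vgf, a neuropeptide precursor, went from 1.32, 0.569 and 0.108 CPM to 14.7, 26 and 17.7 CPM (log2 fold change 4.85 ± 0.56 SE, edgeR adjusted p = 4.15e-07). Syp (synaptophysin) rose from 3.72 ± 0.846 to 21.6 ± 4.35 CPM. The decrease was Rest, the repressor of neuronal genes (-1.17). The summed level of the 33 neural genes was between 1180 and 1250 CPM in all 6 libraries. Of 20 tested Hox genes 0 rose and Hoxa7 fell to 0 from a mean of 0.8 CPM.

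Of 41 genes of the germline and meiosis 19 rose (46.3%, against 10.8% of all tested genes) and 2 fell (4.88%, against 5.84%), with a median log2 fold change of 0.859. Of 24 genes of the embryo's 2-cell stage 14 rose (58.3%) and 2 fell (8.33%), with a median of 1.82. The upstream bases of an autosomal germline gene, of 1 on the X chromosome and of a 2-cell gene are printed because the lists differ in CG pairs (RefSeq, GRCm38.p6, 5′ to 3′ on the gene's strand, CG pairs in capitals).
Asz1, chr6:18109062-18109311, minus strand: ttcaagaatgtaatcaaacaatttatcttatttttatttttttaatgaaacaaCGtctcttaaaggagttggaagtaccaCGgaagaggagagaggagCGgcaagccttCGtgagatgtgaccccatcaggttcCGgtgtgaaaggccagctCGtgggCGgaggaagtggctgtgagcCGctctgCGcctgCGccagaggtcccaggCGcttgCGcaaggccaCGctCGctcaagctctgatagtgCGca
Tex13b, chrX:140813434-140813683, minus strand: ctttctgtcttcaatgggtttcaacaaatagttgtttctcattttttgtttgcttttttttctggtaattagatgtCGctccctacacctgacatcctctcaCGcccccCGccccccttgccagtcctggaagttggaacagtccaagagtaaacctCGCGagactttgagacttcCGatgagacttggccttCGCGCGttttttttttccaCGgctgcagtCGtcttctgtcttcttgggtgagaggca
Tdpoz4, chr3:93796148-93796397, plus strand: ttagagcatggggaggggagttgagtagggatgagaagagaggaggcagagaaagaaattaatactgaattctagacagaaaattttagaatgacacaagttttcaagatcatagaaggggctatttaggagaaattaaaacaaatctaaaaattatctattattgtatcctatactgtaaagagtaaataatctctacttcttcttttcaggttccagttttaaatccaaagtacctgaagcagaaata

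Asz1, a piRNA pathway gene of the germline (chromosome 6, 18050964 to 18109061), had 15 CG pairs in its window and went from 0.99, 1.48 and 0.431 CPM to 14.1, 16.5 and 16.7 CPM (log2 fold change 4.02 ± 0.55 SE, edgeR adjusted p = 3.87e-06). Tex13b, a testis-expressed gene (chromosome X, 140808307 to 140813433), had 11 and went from 0.77, 1.02 and 1.08 CPM to 25.4, 24.8 and 25.2 CPM (log2 fold change 4.7 ± 0.34 SE, edgeR adjusted p = 3.78e-10). Tdpoz4, a 2-cell gene with 0 CG pairs (chromosome 3, 93796398 to 93797510), went from 0.33, 0.114 and 0.108 CPM to 6.42, 5.98 and 6.75 CPM, at least 19.3-fold higher. Of the germline genes that rose 17 had a window, with a median of 14 CG pairs and 0% under 5. All 8 of the 2-cell genes that rose and had a window held under 5, with a median of 1. The letters TATAAA stood on either strand in 62.5% of these 8 windows and in 8.09% of all. These counts describe the sequences and were not tested. The windows lie upstream of annotated starts, which were not checked as starts of transcription. This includes Tdpoz4, annotated as an unbroken exon of 1113 bases.

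Tuba3b, a testis tubulin, went from 7.37, 8.77 and 5.17 CPM to 136, 152 and 137 CPM (log2 fold change 4.32 ± 0.30 SE, edgeR adjusted p = 1.81e-10). The RNA-binding protein gene Dazl (2.2), the meiotic inducer Stra8 (2.51) and the synaptonemal gene Sycp2 (2.94) rose on the log2 scale. Tex101, a sperm surface protein gene, rose from 3.1 ± 2.12 to 42.2 ± 9.36 CPM, and it also rose in the HDAC1-WT cells. The germ cell factors Prdm1 and Dmrt1 fell, from 21 ± 4.64 to 5.64 ± 1.1 CPM and from 39.4 ± 6.56 to 10.7 ± 1.74 CPM. In the 2-cell list the deubiquitinase gene Usp17lb rose from 9.44 ± 1.26 to 79.2 ± 5.72 CPM, with the other four Usp17l genes between 2.16 and 2.49 on the log2 scale. Of the Zscan4 genes, a family with telomere regulators of that stage, Zscan4d (2.28), Zscan4e (1.21) and Zscan4f (1.78) rose. Zscan4a, annotated as an unprocessed pseudogene, lay at the limit of a decrease (-1.0), a call lost in 5 other fits (-0.967 with RLE factors). The other decrease of the 2-cell list was Tmem92, from 29.7 ± 2.82 to 4.58 ± 1.06 CPM (log2 fold change -2.69). Tuba3b, Tdpoz4 and the Zscan4 genes have copies at least 95% identical over part of their transcripts, so reads may be split among members.

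Of 41 imprinted genes 13 rose (31.7%, against 10.8% of all tested genes) and 2 fell (4.88%, against 5.84%), with a median of 0.599. Cdkn1c, a maternally expressed inhibitor of cyclin-dependent kinases (CDKs) (chromosome 7, 143458339 to 143461050), went from 12.4, 14.5 and 13.4 CPM to 97.6, 93.3 and 88.3 CPM (log2 fold change 2.79 ± 0.16 SE, edgeR adjusted p = 1.56e-11), with 30.7% of its exons in an overlap. Kcnq1ot1, the noncoding RNA of the same domain, fell from 17.9 ± 3.51 to 5.98 ± 0.296 CPM, a call lost in 5 other fits. The maternally expressed RNAs H19 (2.32), Meg3 (1.28), Rian (1.37) and Mirg (2.75) rose on the log2 scale. The paternally expressed Peg10, Nnat (2.75), Plagl1 (2.24) and Zdbf2 (1.11) rose too, and counts do not tell the alleles apart.

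Of 25 glycolysis genes 19 passed the adjusted p limit with lower levels and 9 of these fell by more than 2-fold (8 without TMM factors). Over all 18791 tested genes 2767 passed that limit with lower levels, and 5.84% fell by more than 2-fold. The median log2 fold change was -0.729 (-0.523 without TMM factors). Ldhb, a lactate dehydrogenase subunit (chromosome 6, 142490249 to 142507957), had the largest decrease, from 1169, 1168 and 1177 CPM to 107, 109 and 99.9 CPM (log2 fold change -3.47 ± 0.15 SE, edgeR adjusted p = 2.35e-13). Gpi1, glucose phosphate isomerase, went from 1704, 1817 and 1650.3 CPM to 509, 544 and 542 CPM. Aldoc, an aldolase, fell from 106 ± 4.75 to 21.5 ± 3.61 CPM and Tpi1, triosephosphate isomerase, from 1151 ± 27.9 to 383 ± 10.1 CPM. Ldhb, Gpi1 and Tpi1 have near-identical pseudogenes. The glutamine transporter gene Slc1a5 (from 190.0 ± 9.35 to 38.6 ± 1.73 CPM) and the mitochondrial serine enzyme gene Shmt2 (from 304 ± 8.37 to 141 ± 14.2 CPM) fell beside Tdh among 21 genes of threonine, serine and one-carbon metabolism. Of 70 ribosomal protein genes 43 passed the adjusted p limit with lower levels and 2 (Rpl30 and Rps27) fell by more than 2-fold, 0 without TMM factors. The median was -0.694 (-0.488 without TMM factors). With HDAC1-E63R it was -0.746.

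Of 50 cell cycle genes 6 fell (12%, against 5.84% of all tested genes) and 2 rose (4%, against 10.8%), with a median of -0.545. Of the 16 replication genes 14 passed the adjusted p limit with lower levels (2767 of all 18791 tested genes did) and 4 fell by more than 2-fold. The licensing factor Cdc6 fell from 48.2 ± 4.04 to 19 ± 0.385 CPM and the ribonucleotide reductase subunit Rrm2 from 309 ± 4.14 to 132 ± 11.5 CPM. Of 17 mitosis genes 0 were DEGs (16.6% of all tested genes were). Myc, a driver of growth, rose from 1.2 ± 1.13 to 5.49 ± 1.07 CPM, as did cyclin D2 (1.25 on the log2 scale). The call of Myc (edgeR adjusted p = 0.00635) was lost in 7 fits that left out a library (adjusted p up to 0.0379). The CDK inhibitors split. Cdkn1c, Cdkn2b (from 2.33 ± 1.27 to 13 ± 2.5 CPM) and Cdkn2a (from 12.5 ± 0.561 to 38 ± 3.06 CPM) rose, and Cdkn1b went from 212, 190.5 and 207 CPM to 55.3, 52.5 and 52.7 CPM (log2 fold change -1.92 ± 0.10 SE, edgeR adjusted p = 4.25e-12). Cdkn1a (p21), a p53 target known to respond to HDAC inhibitors, had 177, 161 and 156 CPM without and 144, 145 and 152 CPM with OHT (log2 fold change -0.16, edgeR adjusted p = 0.25, and 0.0427 without TMM factors). Of 26 p53 targets 2 rose and 2 fell (7.69% each, against 10.8% and 5.84% of all tested genes). The latter were Gdf15 (from 57.3 ± 4.91 to 12.6 ± 2.3 CPM) and Bbc3.

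Of 60 genes of HDAC1/2 complexes 1 rose (1.67%, against 10.8% of all genes) and 5 fell (8.33%, against 5.84%), with a median of -0.0676 (0.138 without TMM factors). In the SIN3 group Brms1l rose (1.27) and Sap30 fell from 147 ± 5.92 to 57.3 ± 4.76 CPM, beside Tet1, which is listed there as a partner of SIN3A. Chd5 of NuRD, Rreb1 and Elmsan1 (the gene for MIDEAS) fell with log2 fold changes of -1.07, -1.06 and -1.05, close to the limit. Of 12 other deacetylases Sirt3, a mitochondrial enzyme, fell from 38.8 ± 2.9 to 12.3 ± 2.57 CPM, and of 12 histone acetyltransferases 0 were DEGs. Of 15 acetyl-lysine reader genes Brdt, of the testis, rose (1.49) and Brpf3 fell (-1.15), which is 6.67% in each direction.

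Of 30 Polycomb genes 2 rose and 2 fell (6.67% each, against 10.8% and 5.84% of all tested genes). Phc1, a subunit of the PRC1 complex, went from 407, 448 and 443 CPM to 86.2, 93.9 and 98.5 CPM (log2 fold change -2.22 ± 0.13 SE, edgeR adjusted p = 1.31e-11), and its paralog Phc2 rose from 46.5 ± 8.02 to 124 ± 3.2 CPM. Ezh1, a methyltransferase of PRC2, fell from 72.7 ± 4.97 to 33.2 ± 5.57 CPM. Cbx8 rose from 2.34 ± 1.14 to 7.41 ± 0.835 CPM and lost its call in other fits, for example without OHT replicate 3 (edgeR adjusted p = 0.024). Of 17 linker and variant histone genes 0 were DEGs. H1f0, a linker histone known to rise with HDAC inhibitors, had 70.8, 69.2 and 91.9 CPM and then 75.5, 78.7 and 79 CPM (log2 fold change 0.01, edgeR adjusted p = 0.968).

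**Figure D3:**
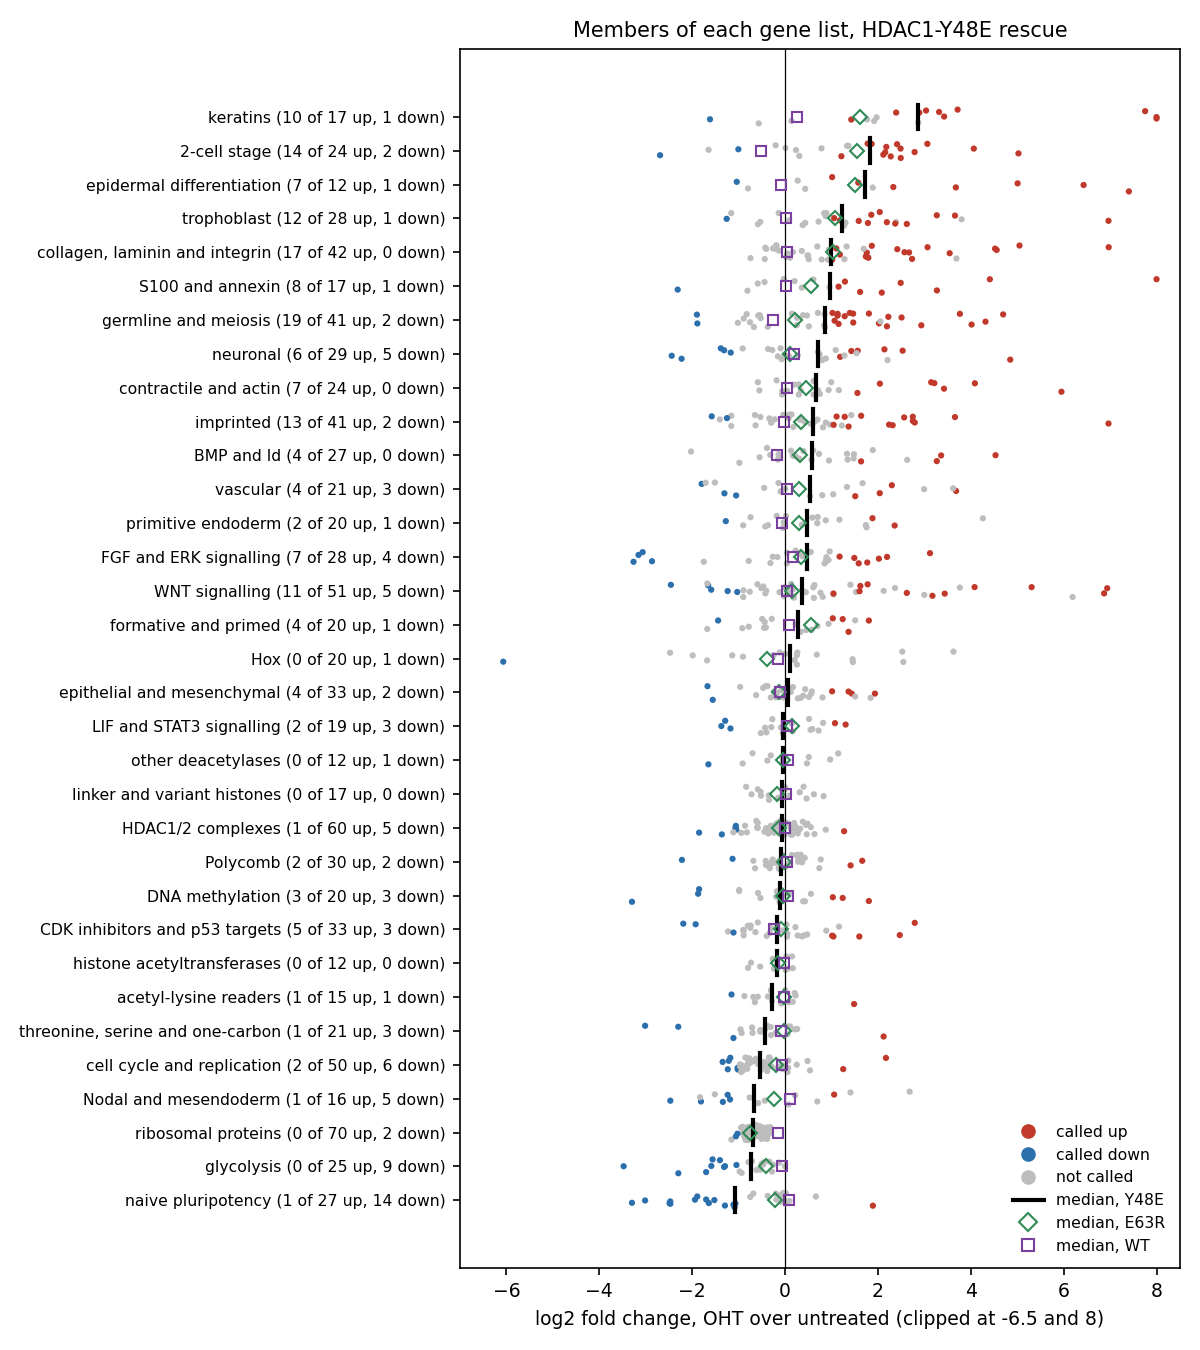
Log2 fold changes after OHT of the members of each gene list in the HDAC1-Y48E line (dots, coloured by call), with the median of the list for HDAC1-Y48E (black bar), HDAC1-E63R (diamond) and HDAC1-WT (square). Keratins have a median of 2.87 and naive pluripotency genes of -1.07, where the HDAC1-E63R median is -0.22 and that of HDAC1-WT 0.0953.

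The OHT effect was then compared between lines by testing the difference of the effects. With HDAC1-WT rescue 10 genes were DEGs after OHT (0.0532% of those tested). The effect in the HDAC1-Y48E cells departed from that with wild-type rescue for 1619 genes, 873 (4.65%) with the greater and 746 (3.97%) with the lower value in HDAC1-Y48E. Most of these, 1433, were DEGs of the HDAC1-Y48E line in the same direction. Gm11543 went from 16.3, 20.2 and 17.7 CPM to 0.602, 0.363 and 0 CPM with HDAC1-Y48E and from a mean of 0.769 CPM to 0 with HDAC1-WT, which did not pass the limit (edgeR adjusted p = 0.0508). Zscan4-ps2 and Gm12794, both with near-identical copies, rose with HDAC1-Y48E (log2 fold changes 1.33 and 1.17), and with HDAC1-WT they started low, at 0.568 and 1.05 CPM, and had 0 counts after OHT. Their fitted differences between lines are therefore no measure of size.

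With HDAC1-E63R rescue 1111 genes (5.91%) were DEGs. Of the genes that rose with HDAC1-Y48E 720 also rose with HDAC1-E63R, 35.5% of the former and 80.9% of the latter. Of those that fell 160 were shared, 14.6% and 72.4%. The difference of the effects was called for 246 genes, 60 (0.319%) with the greater and 186 (0.99%) with the lower value in HDAC1-Y48E. Without the untreated HDAC1-E63R replicate 3 it was called for 465 genes. Of the genes that rose with HDAC1-Y48E 1174 did not pass the adjusted p limit with HDAC1-E63R, but the difference was called for 51 of all that rose. Of those that fell 586 did not pass, and the difference was called for 160.

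Naive pluripotency genes were among these differences. The value was lower with HDAC1-Y48E for 11 of 27 genes, 8 of them among the 11 naive factors, and higher for Dppa3. For Prdm14 the log2 fold change with HDAC1-E63R was -0.91 (difference -2.39 ± 0.26 SE, edgeR adjusted p = 7.44e-06). For Esrrb it was -0.40 (difference -1.24 ± 0.15 SE, edgeR adjusted p = 2.97e-05). For Nanog it was -0.22 (difference -1.07 ± 0.14 SE, edgeR adjusted p = 4.12e-05). Pou5f1 missed the limits with a difference of -0.78 ± 0.18 SE, edgeR adjusted p = 0.0136. Of 25 glycolysis genes 4 had the lower value with HDAC1-Y48E, among them Ldhb (-1.83 with HDAC1-E63R, difference -1.65 ± 0.20 SE, edgeR adjusted p = 1.95e-05). Fgf4 did so too (-1.26, difference -1.81 ± 0.12 SE, edgeR adjusted p = 1.02e-08).

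Of the 6 simple epithelial keratins 3 rose further with HDAC1-Y48E, among them Krt8 (difference 2.01 ± 0.16 SE, edgeR adjusted p = 6.14e-08) and Krt18 (difference 2.27 ± 0.28 SE, edgeR adjusted p = 3.02e-05). Of the 11 epidermal keratins 0 passed, but the test has little precision for genes at or near 0 in both untreated groups. After OHT Krt5 had 11.4 ± 0.869 CPM with HDAC1-E63R and 15.4 ± 0.888 CPM with HDAC1-Y48E, and Krt14 11.5 ± 1.22 and 29.1 ± 1.87 CPM. Of 41 germline genes 7 had the higher and 1 the lower value with HDAC1-Y48E. Tex13b was among the former, with a log2 fold change of 1.38 with HDAC1-E63R (difference 3.32 ± 0.45 SE, edgeR adjusted p = 7.9e-05). Id3 and Id1 had differences of 1.93 and 1.66, Ly6a of 3.13 and Slc5a5 of 2.73 on the log2 scale.

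For Egr1, an immediate early gene of the ERK pathway, the difference was negative. It had 79.3, 71.4 and 64.2 CPM without and 85.9, 99.9 and 82.2 CPM with OHT in the HDAC1-Y48E libraries (log2 fold change 0.32, edgeR adjusted p = 0.0364). With HDAC1-E63R it rose from a lower start, from 5.38 ± 0.854 to 49.4 ± 4.82 CPM (log2 fold change 3.19, difference -2.87 ± 0.19 SE, edgeR adjusted p = 9.45e-09), to a level below that of the treated HDAC1-Y48E cells. Untreated HDAC1-WT cells had 49.5 ± 1.03 CPM. The plot of the 3 lines shows these genes side by side.

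**Figure D4:**
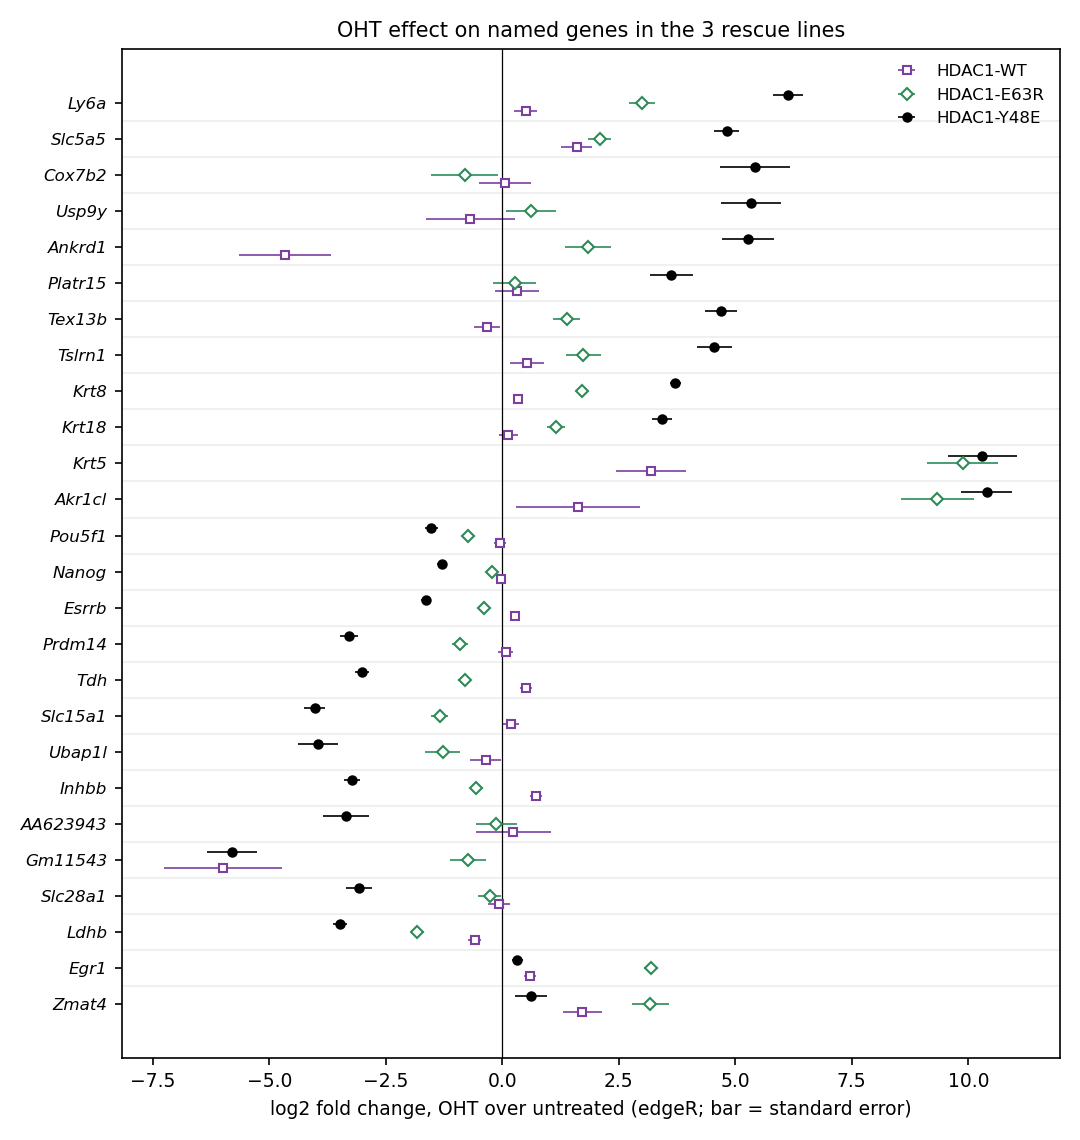
Log2 fold change after OHT of 26 genes in the HDAC1-WT (squares), HDAC1-E63R (diamonds) and HDAC1-Y48E (filled circles) lines, with bars for the standard error. HDAC1-E63R lies between the other lines for Krt8, Prdm14 and Ldhb and beyond both for Egr1 and Zmat4, and values of Krt5 and Akr1cl start from counts at or near 0.

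Increases were more frequent on the X chromosome, which is single in this male line. Of 678 tested X-linked genes 20.2% (137) rose, against 10.4% of 17837 autosomal genes, whose chromosomes ranged from 7.89% (chromosome 17) to 12.7% (chromosomes 14 and 15). Decreases were at 4.13% against 5.93%. The share that rose was higher for the X chromosome in each class of level. It was 15.4% against 6.89% below 1 CPM and 31.1% against 17.1% between 1 and 10 CPM. Between 10 and 100 CPM it was 14.2% against 8.57%, and above 100 CPM, with 57 X-linked genes, 3.51% against 2.08%. The median log2 fold change of the X-linked genes was 0.34 with HDAC1-Y48E, 0.131 with HDAC1-E63R and -0.0456 with HDAC1-WT. Genes are not replicates, and these shares are descriptions with no test.

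Genes with few CG pairs upstream were called more often. A RefSeq window was at hand for 12440 of the 18791 tested genes. The median was 15 CG pairs in 250 bases over all of them, 11 for the 1404 genes that rose and 13 for the 758 that fell. Of genes with under 5 CG pairs 19.3% rose, of those with 5 to under 15, 11.9%, and of those with 15 or more, 8.68%. The shares that fell were 7.47%, 6.75% and 5.25%, so that the gradient was present in both directions. Between 10 and 100 CPM the shares that rose went from 17.5% to 7.6% and those that fell from 14.4% to 5.47%, and above 100 CPM the shares that rose went from 13% (54 genes) to 1.2%. Between 1 and 10 CPM they were close together (22.7%, 21.4% and 20.2%). RefSeq and GENCODE can place a start differently. Of 9992 windows compared 74.9% began within 100 bases of the GENCODE gene end and 22% lay further inside the gene. Among the former the shares that rose were 19.2%, 11.1% and 8.47%. The window of Ldhb, the largest decrease at a high level, held 14 CG pairs and is shown beside those of the genes that rose (same source and marking).
Ldhb, chr6:142507958-142508207, minus strand: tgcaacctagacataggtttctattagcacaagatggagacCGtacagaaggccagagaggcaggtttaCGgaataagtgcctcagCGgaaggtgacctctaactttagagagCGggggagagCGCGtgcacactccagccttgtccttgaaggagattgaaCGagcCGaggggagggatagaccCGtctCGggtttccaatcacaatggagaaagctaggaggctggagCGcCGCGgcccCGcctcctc

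Of 4 motifs searched on both strands of the windows, the TFAP2 type letters GCCNNNGGC occurred in 24.4% of windows of genes that rose, 21% of those that fell and 23.3% of all. The TEAD type letters GGAATG occurred in 15%, 15% and 13.1%. The CRE letters TGACGTCA occurred in 2.35%, 3.03% and 2.85%, and the TATA box letters TATAAA in 10.8%, 8.84% and 8.09%. These motifs do not contain each other, and a match of letters is a description and not a bound site.

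**Figure D5:**
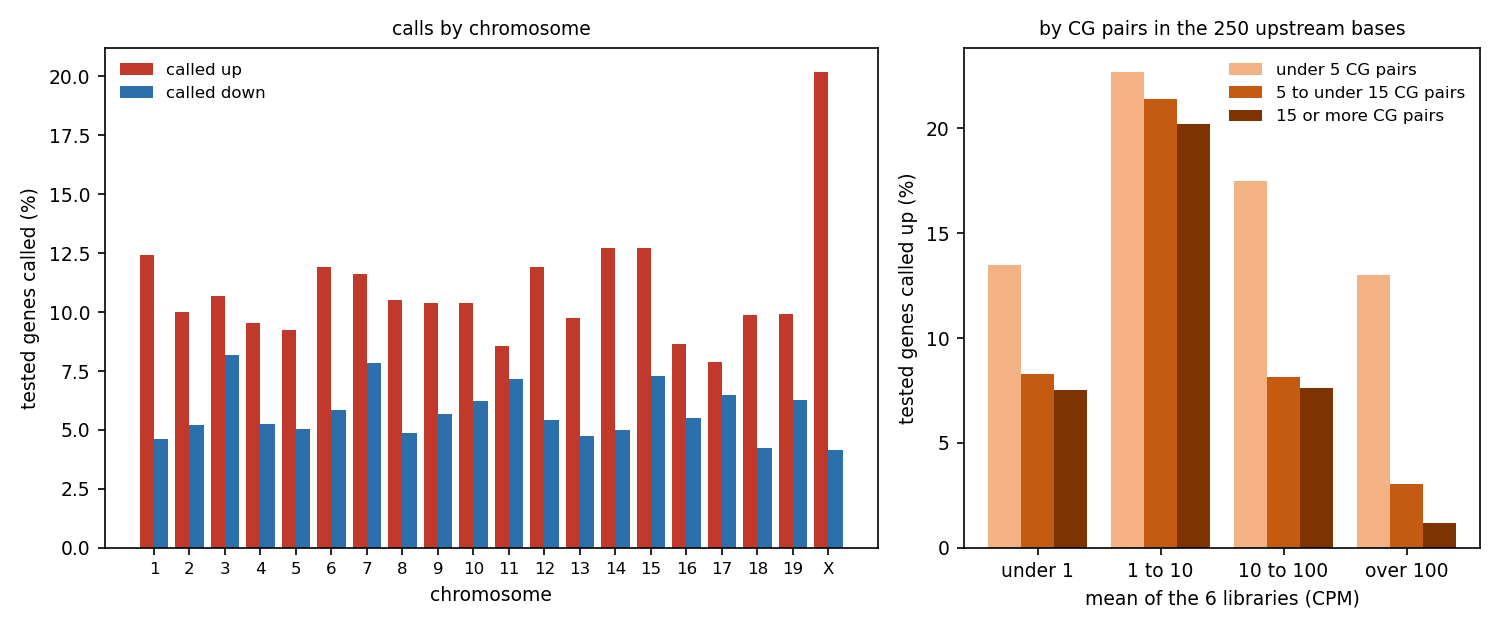
Left, the percentage of tested genes on each chromosome that rose (red) or fell (blue) after OHT in the HDAC1-Y48E line, with 20.2% up on the X chromosome. Right, the percentage that rose by class of mean level in CPM and by number of CG pairs in the 250 upstream bases, which is lower with more CG pairs and nearly level between 1 and 10 CPM.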

How the data were processed

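RNA-seq of 18 libraries was used, 3 per group, with groups and replicate numbers taken from the labels. The authors deposited raw counts of reads per gene for each library. The submitters' processing notes name HISAT2 2.1.0, SAMtools 1.9, HTSeq and the mm10 build, and the annotation and the use of strand in counting are not given in the sources used here. The 5 entries of each file that name no gene (59.4% to 61.2% of all counts of a library) were not used. The gene counts of the 18 libraries were 9019615 to 11454638.

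All 18 libraries were fitted together with a mean per group in edgeR 4.0.16 (limma 3.58.1, R 4.3.3), with filterByExpr (18791 genes left), TMM factors and the quasi-likelihood test. P-values were adjusted over all tested genes by Benjamini-Hochberg, and standard errors were computed from the F statistics. A call required both an adjusted p below 0.01 and more than a 2-fold change. Differences of OHT effects between lines were contrasts of the same fit. A fold against libraries with at most 3 counts was computed against that floor of 3 counts per library and is a lower bound. Alternatives were RLE factors, no filter, the replicate number as a block, the 6 HDAC1-Y48E libraries alone, DESeq2 1.42.0, other limits and leaving out each library. Scaling without TMM factors was chosen after seeing the data. Scripts were tested on simulated data.

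Positions came from the GENCODE vM21 annotation of mm10 (98.6% of tested symbols matched) and upstream windows from RefSeq (GRCm38.p6), read with Python 3.11.15. Near-identical copies were matches of at least 95% over at least 200 bases of transcript. The gene lists and the members were chosen with earlier results of these data known, and lists are described by counts and medians with no test. Genes named were the 15 largest increases and decreases of at least 10 CPM without overlap between groups, the 10 genes highest after OHT from at most 3 counts and the reverse, the 8 largest differences in each direction from each other line, up to 4 largest called increases and decreases of each list (at least 1 CPM), and 16 fixed genes. From these the text names a part. Klf4, Klf5, Zfp42, Sall4, Hoxa7, Elmsan1 and the other list members given with a log2 fold change alone were named after their values were seen.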

Additional observations from a re-analysis of the deposited data

Results flagged for a closer look

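These results differed between the HDAC1-Y48E line and another line by edgeR's test of the difference of the OHT effects. Against HDAC1-WT 1619 genes did so. As differences on the log2 scale (HDAC1-Y48E minus HDAC1-WT), the named genes above 0 were Ankrd1 (9.94), Gm11427 (9.73), S100a14 (9.19), 1700080O16Rik (7.72), Gm41 (7.68), Gm12794 (7.6), Zscan4-ps2 (6.9) and Xlr (6.88), and those below 0 were Zmynd10 (-5.48), Slc15a1 (-4.21), Inhbb (-3.95), Fgf10 (-3.87), Ubap1l (-3.61), AA623943 (-3.59), Prmt8 (-3.59) and Tdh (-3.52). For Ankrd1, Gm12794 and Zscan4-ps2 the HDAC1-WT cells had means of 1.08, 1.05 and 0.568 CPM without OHT and at most 0.0302 CPM with it, so the differences depend on few counts.

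Against HDAC1-E63R 246 genes differed. The named genes above 0 (HDAC1-Y48E minus HDAC1-E63R) were Cox7b2 (6.23), Usp9y (4.73), Ankrd1 (3.42), Platr15 (3.36), Tex13b (3.32), Ly6a (3.13), Tslrn1 (2.81) and Slc5a5 (2.73), and those below 0 were Gm11543 (-5.05), AA623943 (-3.23), Egr1 (-2.87), Slc28a1 (-2.81), Slc15a1 (-2.68), Ubap1l (-2.68), Inhbb (-2.67) and Zmat4 (-2.56). Cox7b2, a cytochrome oxidase subunit gene of the testis, had 0.33, 0.228 and 0.108 CPM without and 9.54, 10.2 and 10.3 CPM with OHT in the HDAC1-Y48E libraries and a log2 fold change of -0.80 with HDAC1-E63R (edgeR adjusted p = 0.452). Egr1 and its levels in each line are given above. Fitted values of genes at 0 counts in a group depend on the prior count and are no measure of size.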

How the results depend on the processing

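Most counts of DEGs kept within 1.5 times of the reported ones under the alternatives, with 2108 genes up with RLE factors and 2278 by DESeq2, and no gene was called in opposite directions by any of them. Exceptions, beside the block below, were the genes down, 2767 without a fold limit and 686 without TMM factors, and the genes whose effect differed from HDAC1-E63R (246), 419 without the filter and 491 at an adjusted p limit of 0.05. Without TMM factors all 2030 increases were shared. Leaving out each library in turn gave 1663 to 2407 genes up, 1012 to 1214 down, 1371 to 2155 for the difference from HDAC1-WT and 184 to 465 for that from HDAC1-E63R. The count of genes up was lowest without HDAC1-Y48E untreated replicate 3 and the other lowest counts came without HDAC1-Y48E OHT replicate 3. The value of 465 came without untreated HDAC1-E63R replicate 3. The causes were not tested.

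Samples shared replicate numbers, but same-numbered HDAC1-Y48E libraries did not deviate together (correlations over 10786 genes of -0.00158, 0.0372 and -0.00557, and not every sample correlated best with its own number). The numbers were therefore not taken as pairs. With the number as a block 2305 genes were up, 1113 down, and 143 differed from HDAC1-E63R.

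Of 204 log2 fold changes of named genes 199 kept direction and call with RLE factors and 181 without TMM factors. Values that changed sign belonged to genes with no call. Without TMM factors these were Cdkn1a (0.0427), Gata6 (0.175), Hdac2 (0.136), Klf4 (0.111) and Sall4 (0.0107). Gata6 was also above 0 with RLE factors (0.00681), with the block (0.00152) and by DESeq2 (0.00739), and H1f0 was at -0.00717 with the 6 HDAC1-Y48E libraries alone. With a library left out Gata6 ranged from -0.29 to 0.217, Cdx2 from -4.98 to 1.09 and H1f0 from -0.0677 to 0.149, and 24 genes lost a call in 1 or more of these fits. Beside those named with their results, Bbc3, Brpf3, Chd5, Dnmt3b, Ezh1, Grhl3, Lifr, Rpl30, Rps27, Rreb1 and Shmt2 lost a call in at least 1 alternative. Depth limits genes near 3 counts per library, such as Cdx2.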

Other observations

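Genes of the Y chromosome of this male line moved in both directions after OHT with HDAC1-Y48E. Of 13 tested genes 6 rose and 1 fell. Usp9y, a deubiquitinase gene, rose from a mean of 0.333 to 14 CPM (log2 fold change 5.35), Kdm5d, a histone demethylase gene, from a mean of 0.658 to 11 CPM (4.03) and Uba1y, a ubiquitin-activating enzyme gene, from a mean of 15.2 to 74.8 CPM (2.30). The zinc finger genes Zfy1 and Zfy2 rose as well (1.20 and 3.45), as did Gm3376, from a mean of 0 to 5.89 CPM. Uty, a histone demethylase gene of the same chromosome, fell from a mean of 28.3 to 13.6 CPM (-1.05). Ddx3y had 101 and 57.2 CPM (-0.82) and Eif2s3y 81.9 and 79.1 CPM (-0.05), neither a DEG. With HDAC1-E63R the log2 fold changes of Usp9y, Kdm5d and Uba1y were 0.62, 0.76 and 0.78, those of Zfy1 and Zfy2 0.86 and 1.75, and that of Gm3376 5.11, and no difference between lines was read from them beyond that of Usp9y given above.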
